A study of Homo sapiens with 12 samples.

Results

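The ZNF-numbered zinc finger genes described here are human genes whose symbol is ZNF followed by a number. Of 446 such genes in the compound 1 table, 419 were also in the SAHA table and 388 were in all 3 tables. The 250 of these 388 with the highest mean normalized count in the compound 1 table were taken, out of 27146 genes in any of the tables. At that limit the mean count was 47.6 for ZNF718, 47.4 for ZNF675 and 46.8 for ZNF766 in the authors' deposited table, and the first genes left out were ZNF79 at 46.6, ZNF440 at 46.6 and ZNF432 at 46.3. The genes were thus chosen by their mean count in the compound 1 table, and nothing is read from their counts in that comparison, which are given as a description.

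The cells were of the human line MDA-MB-231, established from a triple-negative breast tumour (lacking oestrogen and progesterone receptors and HER2 amplification), treated as 4 groups for 48 h: SAHA at 2.5 µM, compound 1 at 2.5 µM, a6 at 2.5 µM and the vehicle DMSO (Ctrl), with 3 libraries per group and 12 in all. SAHA (vorinostat) inhibits histone deacetylases, and the design text calls SAHA and compound 1 single-targeting and a6 dual-targeting. The deposited tables compare each compound with Ctrl and hold neither values nor totals for single libraries. Library depth is therefore unknown here, and the spread between libraries is seen only through the standard error of each fold change. The libraries are labelled as biological replicates of 1 line with nothing said of separate cultures, so the p-values measure only how these libraries vary, which may be technical. In bulk RNA, fewer cells of a kind and less RNA per cell cannot be told apart. All 3 compounds are set against the same Ctrl group.

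Most ZNF-numbered proteins are built from tandem C2H2 zinc fingers, each of which folds around a zinc ion and reads a few bases of DNA. Many carry a KRAB box near the amino terminus, which binds the corepressor TRIM28 (KAP1). TRIM28 in turn brings the H3K9 methyltransferase SETDB1, HP1 proteins and the deacetylase complex NuRD, and this system is best known for silencing transposable elements. Other members carry a SCAN box, a dimerization domain, or no such box at all. Much of the KRAB family lies in tandem arrays on chromosome 19.

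The 250 genes covered this range of structures. All were protein-coding in GENCODE 29 on GRCh38. A KRAB A box was found in the annotated translations of 131 and not in those of 119, and a SCAN box in 11, of which 6 had both. The median number of C2H2 fingers was 10 and the highest was 34, in ZNF462. Chromosome 19 held 107 of the genes, and 78 of those had a KRAB box.

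The stretches before 3 start sites are shown. ZNF428 had the clearest SAHA response, and ZNF778 the highest value of the 250 with SAHA and with a6. ZNF768 is a lowered gene picked because its window is rich in guanine. The series title names G-quadruplexes (G4s), structures of guanine-rich DNA or RNA, as a target of the dual compound beside histone deacetylases. Each stretch is the 250 bases upstream of the RefSeq start on GRCh38.p14. The positions are chr19:43619630-43619879 on the minus strand for ZNF428, chr16:30526567-30526816 on the minus strand for ZNF768 and chr16:89217453-89217702 on the plus strand for ZNF778. For ZNF428 and ZNF768 the RefSeq start lies inside the span that GENCODE 29 gives the gene. Capitals mark matches on either strand to a G-quadruplex pattern, 4 runs of GGG with 1 to 7 bases between runs.
ZNF428: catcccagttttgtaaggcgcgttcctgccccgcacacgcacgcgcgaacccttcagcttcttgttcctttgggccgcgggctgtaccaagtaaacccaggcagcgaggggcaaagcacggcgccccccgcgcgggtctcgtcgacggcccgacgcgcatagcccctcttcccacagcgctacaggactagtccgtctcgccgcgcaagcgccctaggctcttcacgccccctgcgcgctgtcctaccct
ZNF768: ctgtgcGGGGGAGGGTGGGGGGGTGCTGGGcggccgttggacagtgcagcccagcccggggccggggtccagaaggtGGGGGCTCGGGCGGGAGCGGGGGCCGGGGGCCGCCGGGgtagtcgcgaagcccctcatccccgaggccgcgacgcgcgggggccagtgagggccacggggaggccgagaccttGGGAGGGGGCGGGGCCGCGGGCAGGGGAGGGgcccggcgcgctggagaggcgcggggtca
ZNF778: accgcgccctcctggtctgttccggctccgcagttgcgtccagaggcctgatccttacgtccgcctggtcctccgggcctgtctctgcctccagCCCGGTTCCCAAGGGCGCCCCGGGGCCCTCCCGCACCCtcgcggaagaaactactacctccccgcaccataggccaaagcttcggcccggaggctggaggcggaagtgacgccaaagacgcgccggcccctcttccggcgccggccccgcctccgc
The windows of ZNF768 and ZNF778 held matches to the pattern, and that of ZNF428 held none, although 67.2% of its bases were G or C.

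Promoters in the RefSeq table were matched to 216 of the genes. The G-quadruplex pattern was present in 21.8% of these 216 windows, against 22.5% of all 27305 promoters and 31.8% of the 11684 promoters of genes in the SAHA table. It was present in 14.3% of 112 windows of KRAB genes and in 29.8% of 104 windows of genes without a KRAB box. Among genes lowered with SAHA it was in 1 of 5 windows (20%), that of ZNF768, near the 21.8% above. The ETS motif CCGGAAGT, searched on both strands like the others, was in 14.4% of the windows, against 6.66% for genes in the SAHA table and 3.64% of all promoters. The palindromic NRF1 motif was in 3.24% of the windows, against 1.83% for genes in the SAHA table and 1.13% of all promoters. The shorter CCAAT was in 40.3% of the windows, against 34.6% for genes in the SAHA table and 33% of all promoters. A match describes the letters of the window and is not a bound site.

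Levels of the zinc finger genes spanned a wide range. Their mean normalized count in the compound 1 table had a median of 146, against 23.0 for all genes of that table, which is what the choice by mean count gives. The highest mean counts in the authors' deposited table were 1433 for ZNF598, 1319 for ZNF496, 1306 for ZNF787, 1290 for ZNF316 and 1237 for ZNF76. ZNF598 is the ubiquitin ligase that marks collided ribosomes, and ZNF76 is a relative of the promoter activator ZNF143. Per kilobase of transcript, Ctrl levels ran from 2.72 for ZNF26 to 791 for ZNF593, with a median of 40.0, against 13.6 over all genes of the compound 1 table. These levels come from the same mean counts, so the higher median follows at least in part from the choice. ZNF593 and ZNF622, at 791 and 464 per kilobase in Ctrl, act in assembly of the large ribosomal subunit, a role outside DNA binding.

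The cell line markers were as labelled in part. VIM, at 11295 normalized counts per kilobase in Ctrl, was high, and ESR1 at 0.102, PGR at 0.0245 and CDH1 at 1.04 were low. ERBB2 at 462, EPCAM at 112 and KRT18 at 5427 were not low. SPARC, taken as a marker of the line, was at 6.73. Of markers of other cell types, PTPRC, CD3E and DCN were in 0 of the tables, and CD14 at 15.0 and PI16 at 37.0 were in all 3. LUM and VWF, at 0.113 and 0.160 in Ctrl, were higher with SAHA at log2 fold changes of 7.03 and 4.03, as was CD14 at 1.81, and PI16 was lower with a6 at -2.18, each past the threshold of the authors' deposited table. Their part in the results on zinc finger genes was not tested.

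The comparison of SAHA with Ctrl asks which zinc finger genes a histone deacetylase inhibitor changed. SAHA lowered 6 of the 250 genes and raised 0 at an adjusted p under 0.05 (the authors' DESeq2 Wald test). The lowered genes were ZNF428, ZNF618, ZNF219, ZNF341, ZNF768 and ZNF609. None of them had a KRAB box, which 119 of the 250 lacked. The share lowered was 2.4%, against a background of 3.02% of all 18534 genes and 4.08% of the 12812 genes at least as abundant as the lowest of the zinc finger genes. Such genes are called those above the floor, the floor being the lowest mean count among the 250 in each table. Their median count in the SAHA table was 343, against 146 for the 250. Their median standard error was 0.32, against 0.36, so they are not matched in level. The share raised was 0%, against a background of 4.53% of all genes and 4% of those above the floor. The 250 genes had to be present in all tables, a filter that this background does not have. Outside the 250, SAHA raised ZNF365 and ZNF843, which were not in the a6 table. At an unadjusted p under 0.05, 6 were higher and 25 were lower with SAHA. These are 2.4% and 10% of the genes, beside 10.2% and 8.27% of all genes and 8.66% and 10.6% of those above the floor.

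The median log2 fold change of the 250 genes with SAHA was -0.09, against -0.01 over all genes and -0.06 over those above the floor. The zinc finger genes also spread less: the standard deviation of the log2 fold change was 0.44, against 0.98 over all genes and 0.62 over those above the floor. At 2-fold or more, 1 gene was higher and 7 were lower, 0.4% and 2.8%, beside 11.4% and 5.77% of all genes and 4.39% and 3.46% of those above the floor. The typical standard error of 1 fold change, 0.36 as a median, was of the same order as this spread.

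**Figure D1:**
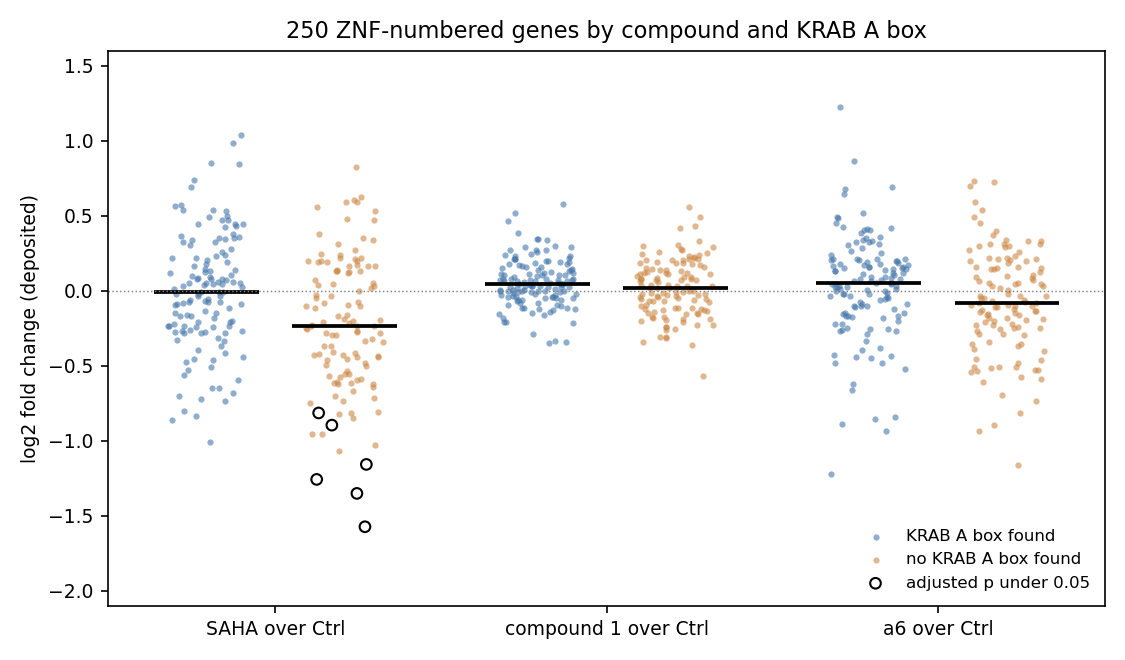
Log2 fold change against Ctrl of each of the 250 genes (points) with SAHA, compound 1 and a6 in the authors' deposited tables, for genes with a KRAB box and without, with the median of each group drawn as a line. With SAHA the genes without a KRAB box sit lower (median -0.23) than those with one (median -0.01). The 6 lowered genes are all in the group without, which holds 119 of the 250.

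ZNF428, a short protein with 1 C2H2 finger at chromosome 19, 43607219 to 43619874, had the lowest value. Its normalized count, worked out as a group mean from the authors' deposited table, was 159 with SAHA, against 473 in Ctrl. It fell by 1.57 (log2, SE 0.31, adjusted p = 4.00e-05 in DESeq2 as given by the authors' deposited table). ZNF428 shares exonic sequence with SRRM5 on the other strand. SRRM5 fell by 1.39 (adjusted p = 0.0019 in DESeq2 as given by the authors' deposited table). The strand setting of the authors' counting is not known here, so reads of this pair cannot be told apart.

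ZNF618, at chromosome 9, 113876282 to 114056591, had a computed mean count of 94.1 with SAHA, against 240 in Ctrl. It fell by 1.35 (log2, SE 0.37, adjusted p = 0.0073 in DESeq2 as given by the authors' deposited table). ZNF618 is known as a partner of UHRF2, a reader of 5-hydroxymethylcytosine. ZNF219, at chromosome 14, 21090046 to 21104722, is described in mouse as a cofactor of SOX9 in cartilage. Its computed mean count was 214 with SAHA, against 512 in Ctrl, and it fell by 1.26 (log2, SE 0.30, adjusted p = 0.0013 in DESeq2 as given by the authors' deposited table). The exons of ZNF219 overlap those of ARHGEF40 on the other strand, whose log2 fold change of -0.37 did not pass (adjusted p = 0.609 in DESeq2 as given by the authors' deposited table).

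ZNF341, an activator of STAT3 transcription in immune cells, lies at chromosome 20, 33731657 to 33792269. Its computed mean count was 90.4 with SAHA, against 202 in Ctrl, and it fell by 1.16 (log2, SE 0.37, adjusted p = 0.031 in DESeq2 as given by the authors' deposited table). The changes of ZNF768 and ZNF609 were under 2-fold. ZNF768, at chromosome 16, 30524001 to 30526821, binds an old class of interspersed repeats. It had a computed mean count of 358 with SAHA, against 667 in Ctrl, and fell by 0.90 (log2, SE 0.30, adjusted p = 0.040 in DESeq2 as given by the authors' deposited table). ZNF609, at chromosome 15, 64460742 to 64686068, is a partner of the cohesin loader NIPBL in mouse neural cells. Its computed mean count was 556 with SAHA, against 978 in Ctrl, and it fell by 0.82 (log2, SE 0.26, adjusted p = 0.029 in DESeq2 as given by the authors' deposited table).

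The 6 lowered genes had some features in common, which are given here beside their background. Each lacked a KRAB box, and the transcript of each of ZNF428, ZNF618, ZNF219, ZNF341 and ZNF768 had over 55% G and C, from 59.2% for ZNF618 to 70.1% for ZNF219. ZNF609 was at 51.6%. Of the 73 zinc finger genes over 55%, 6.85% were lowered, beside 8.03% of all genes of that GC above the floor. Of the 119 without a KRAB box 5.04% were lowered, beside 4.08% of all genes above the floor. Genes without a KRAB box were also more abundant, with a median count of 216 in the SAHA table, against 103 for KRAB genes. GC content moved with the fold change over genes in general, with SAHA and also with compound 1. The SAHA calls were repeated with the SAHA trend removed. Then the call was kept by ZNF428 at -1.37 (adjusted p = 0.00064 from the DESeq2 errors), ZNF618 at -1.18 (adjusted p = 0.027) and ZNF609 at -0.79 (adjusted p = 0.039). It was lost by ZNF219 at -0.88 (adjusted p = 0.054 from the DESeq2 errors), ZNF341 at -0.97 (adjusted p = 0.106) and ZNF768 at -0.66 (adjusted p = 0.209).

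**Figure D2:**
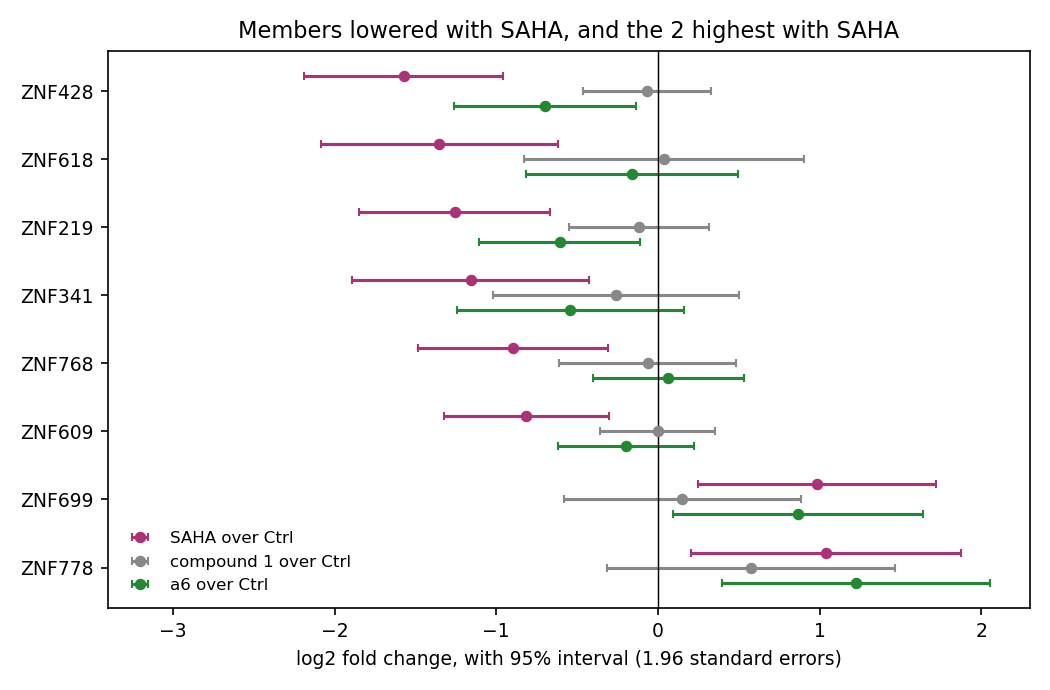
Log2 fold change against Ctrl (horizontal axis) with its 95% interval (bars, from the standard error) for SAHA, compound 1 and a6. Of the zinc finger genes chosen by mean count, the 6 lowered and the 2 highest with SAHA are shown. All values are from the authors' deposited tables. ZNF428 is at -1.57 with SAHA, -0.07 with compound 1 and -0.70 with a6.

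None of the zinc finger genes chosen by mean count was raised by SAHA. ZNF365 and ZNF843, which lie outside this choice, were raised, as given above. The highest value among the chosen genes was that of ZNF778, a KRAB gene at chromosome 16, 89217703 to 89237071. Its computed mean count was 84.4 with SAHA, against 41.1 in Ctrl, and its log2 fold change was 1.04 (SE 0.43, adjusted p = 0.130 in DESeq2 as given by the authors' deposited table). ZNF699, another KRAB gene, had a computed mean count of 185 with SAHA, against 93.4 in Ctrl. Its log2 fold change was 0.98 (adjusted p = 0.093 in DESeq2 as given by the authors' deposited table). They were followed by ZNF607 at 0.85, ZNF559 at 0.85 and ZNF260 at 0.82 in the authors' deposited table, and ZNF260 alone of these 5 had no KRAB box.

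The median with SAHA was lower for genes without a KRAB box than for genes with one. The median log2 fold change was -0.01 for the 131 KRAB genes, of which 64 were above 0, and -0.23 for the 119 others, of which 40 were above 0. For the KRAB genes on chromosome 19 it was 0.05 over 78 genes, and for those on other chromosomes -0.07 over 53. Without a KRAB box it was -0.28 over 29 genes on chromosome 19 and -0.22 over 90 elsewhere, so it was lower than that of the KRAB genes in either place. With a6 the medians were 0.05 for KRAB genes and -0.08 for the others, and with compound 1 they were 0.05 for KRAB genes and 0.02 for the others. The 11 SCAN genes had, with SAHA, a median of -0.28 with 2 above 0, and the 6 with both boxes a median of -0.34 with 0 above 0. These medians are descriptions over genes, which are not replicates.

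GC content moved with this division. The median log2 fold change with SAHA of genes over 55% GC was -0.37, with 13 of 73 above 0, beside -0.22 over all genes of that GC above the floor. Within this class the median was -0.27 for 22 KRAB genes and -0.43 for 51 without. Up to 42% GC the median was -0.09 over 58 genes, beside 0.05 over all genes of that GC above the floor. The lowest class thus did not follow a steady fall with GC. From 42% to 46% the median was 0.08 over 55 genes, beside 0.06 over all genes of that GC above the floor. In this class it was 0.09 for 41 KRAB genes and -0.04 for 14 without. From 46% to 50% it was 0.05 for 24 KRAB genes and 0.02 for 14 without. Within classes of like GC the gap between the groups was thus smaller than the pooled one, which is -0.01 against -0.23. Over the 250 genes the correlation of GC with the SAHA fold change was -0.28 (Pearson) and -0.23 (Spearman). It was -0.19 and -0.24 over 12722 genes. With compound 1, where no gene passed, it was -0.34 and -0.30 over the 250 genes and -0.36 and -0.40 over 12029 genes. With a6 it was 0.21 and 0.25 over the 250 genes and 0.01 and 0.04 over 12793 genes. The cause of these correlations was not tested. These points share their libraries, and GC also went with level, with a Pearson correlation of 0.50 with the log2 mean count over the 250 genes. By level, the 50 most abundant of the 250 had a median of -0.23 with SAHA and held 4 of the lowered genes, and the 50 least abundant had a median of 0.04 and held 0.

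**Figure D3:**
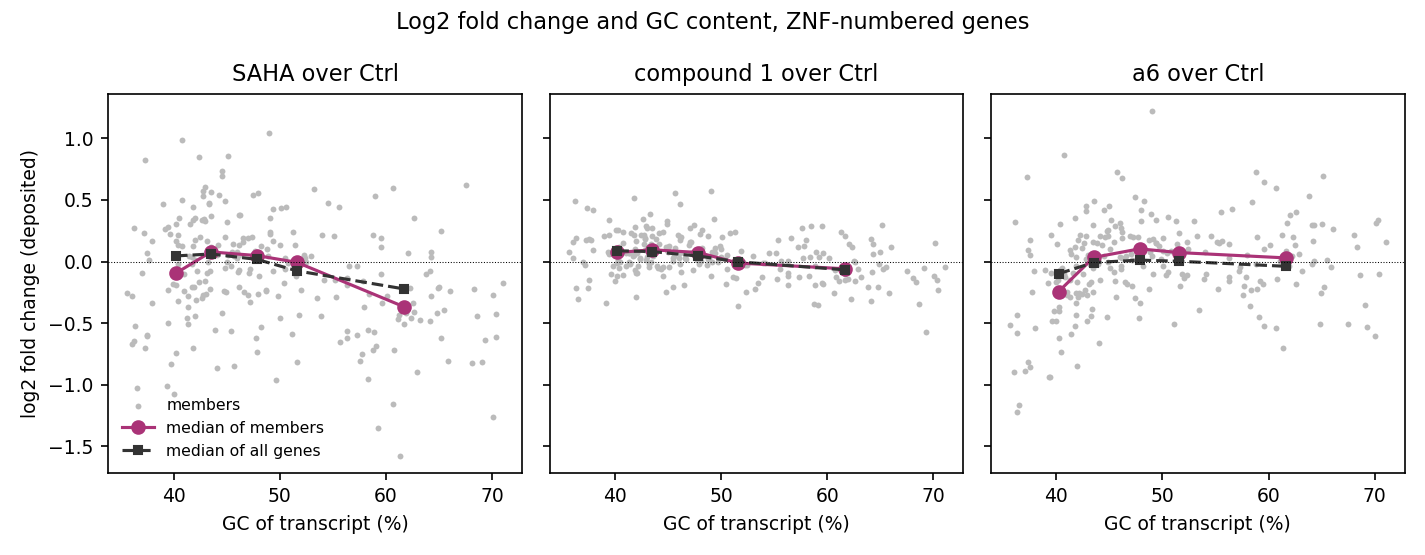
Log2 fold change against the GC percent of the transcript for the 250 genes with SAHA, compound 1 and a6 (grey points), from the authors' deposited tables. The median of each GC class is drawn for these genes (circles) and for all genes above the floor, the lowest mean count among the 250 (squares). With SAHA the genes over 55% GC lie mostly below 0, with 13 of 73 above it, and with a6 the genes up to 42% lie mostly below 0, with 14 of 58 above it.

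Along chromosome 19 the values with SAHA did not run in one direction. Members within 1 Mb of the next were taken as a cluster, which gave 14. The largest, ZNF628 to ZNF446 at 55476332 to 58481230, held 42 genes with a median of -0.17 and 18 above 0, from -0.81 for ZNF579 to 0.74 for ZNF550. The 17 genes from ZNF175 to ZNF331, at 51571298 to 53580269, were all KRAB genes and had a median of 0.05, from -1.01 for ZNF614 to 0.69 for ZNF175. The 11 genes from ZNF358 to ZNF562 had a median of 0.21, from -0.81 for ZNF358 to 0.98 for ZNF699.

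The cluster of ZNF428, ZNF575 to ZNF296 at 43525497 to 45076588, had a median of 0.38 over 9 genes, with 6 above 0. In it the 5 KRAB genes ZNF45, ZNF155, ZNF224, ZNF226 and ZNF227 were between 0.30 and 0.56 in the authors' deposited table, and ZNF296, which has no KRAB box, was at -0.82. The lowered ZNF428 thus stood beside 5 KRAB genes with values above 0, none of which passed the test. ZNF146 to ZNF607 had a median of 0.36 over 6 genes, from -0.70 for ZNF850 to 0.85 for ZNF607. ZNF101 to ZNF738 had a median of -0.27 over 7 genes with 1 above 0, from -0.83 for ZNF90 to 0.23 for ZNF431. Genes of such arrays resemble each other in sequence, and reads could be split between them in ways the tables do not show.

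**Figure D4:**
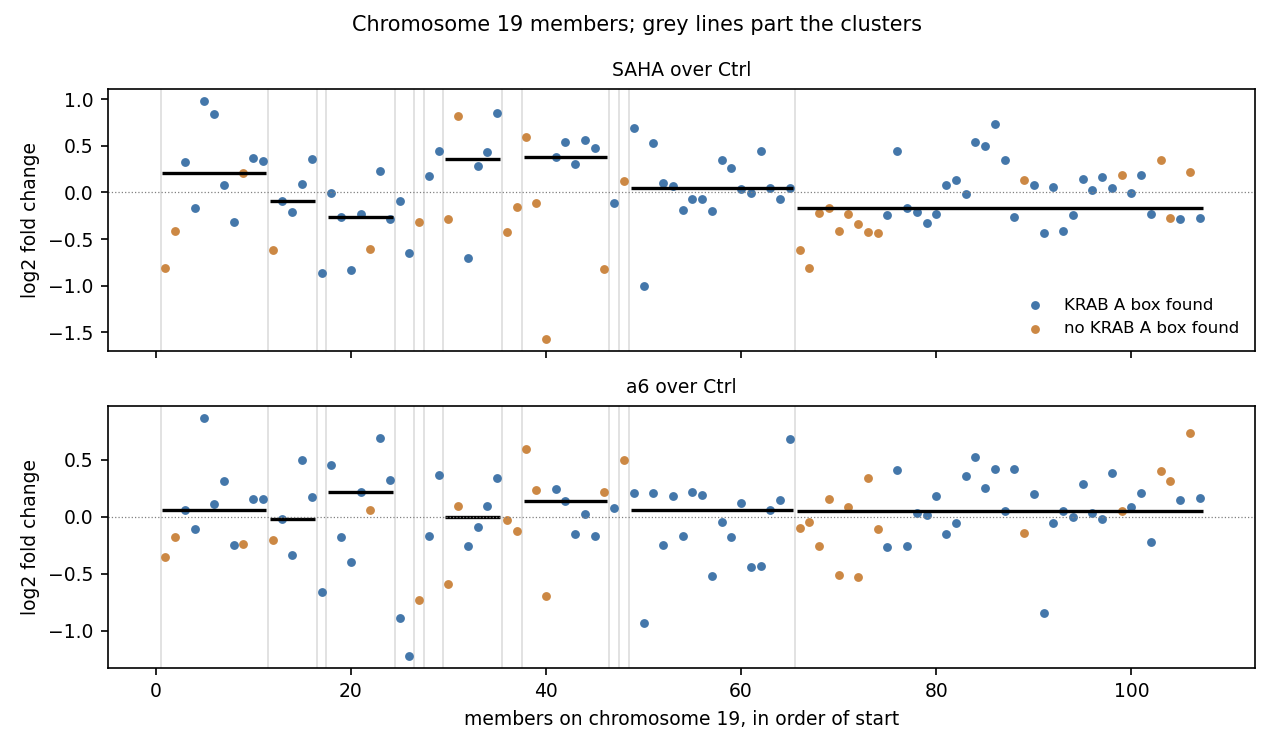
Log2 fold change against Ctrl of the 107 chromosome 19 genes in their order along the chromosome (horizontal axis, rank), with SAHA and with a6 in the authors' deposited tables, coloured by KRAB box, with grey lines between clusters and bars at the medians of clusters of 5 or more genes. The lowest SAHA value, -1.57 for ZNF428, lies next to 5 KRAB genes between 0.30 and 0.56.

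With a6, no zinc finger gene passed. At an adjusted p under 0.05 (the authors' DESeq2 Wald test) 0 of 250 were raised and 0 lowered, against a background of 0.243% and 0.341% of 15255 genes. At an unadjusted p under 0.05, 6 were higher and 7 lower, beside 3.06% and 4.35% of all genes. The median log2 fold change was 0.00 with 126 of 250 above 0, and the standard deviation was 0.35. The highest value was that of ZNF778 again, with a computed mean count of 94.0 with a6, against 40.3 in Ctrl. Its log2 fold change was 1.22 (SE 0.42, unadjusted p = 0.0038, adjusted p = 0.225 in DESeq2 as given by the authors' deposited table). ZNF699 was at 0.87, ZNF324 at 0.73 and ZNF331 at 0.68 in the authors' deposited table.

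The lowest values with a6 were those of ZNF675 and ZNF292. ZNF675, a KRAB gene known as a negative regulator of TRAF6 signalling, had a computed mean count of 18.6 with a6, against 43.4 in Ctrl, and a log2 fold change of -1.22 (adjusted p = 0.317 in DESeq2 as given by the authors' deposited table). Its neighbour ZNF91, which represses SVA retrotransposons in human cells, was at -0.89 with a6 and -0.09 with SAHA in the authors' deposited table. ZNF292 was at -1.16 with a6 and -1.03 with SAHA in the authors' deposited table. ZNF614 was at -0.94 with a6 and -1.01 with SAHA, and ZNF638, a partner of the HUSH silencing complex, was at -0.93 with a6 and -0.50 with SAHA in the authors' deposited table. None of these passed the test. With a6 the 58 genes up to 42% GC had a median of -0.24 with 14 above 0, beside -0.10 over all genes of that GC above the floor. The genes over 55% had 0.03. The correlation of GC with the a6 fold change over the 250 genes was 0.21 (Pearson) and 0.25 (Spearman), and over 12793 genes 0.01 and 0.04.

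The values with compound 1 lay closest to 0, in the comparison whose mean counts chose the genes. At an adjusted p under 0.05, 0 of 250 passed in the authors' DESeq2 Wald test, against a background of 0% of 27126 genes, and 0 passed at an unadjusted p under 0.05, against 0.107% raised and 0.0922% lowered. The median was 0.03 and the standard deviation 0.18, below the median standard error of 0.35. The shares under the unadjusted limit were also far below the 0.05 that no effect at all would give. The standard errors of this comparison were thus large for the spread seen, so these counts do not show absence of change. The cause was not tested, and the differences from compound 1 given below use the same errors. The highest values in the authors' deposited table were 0.58 for ZNF778, 0.56 for ZNF200 and 0.52 for ZNF12, and the lowest were -0.57 for ZNF775, -0.36 for ZNF576 and -0.35 for ZNF688.

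The compounds were compared at the same dose and time in 3 pairs, by the difference of their deposited log2 fold changes, adjusted over all genes in both tables. Between a6 and SAHA 0 zinc finger genes passed, against a background of 0.059% higher and 0.197% lower with a6 over 15255 genes. At an unadjusted p under 0.05, 4 of 250 were higher with a6 and 0 lower, beside 2.65% and 2.91% of all genes. The pairs with compound 1 draw on the comparison whose mean counts chose the genes, so their counts are descriptions from which nothing is read. Between SAHA and compound 1, 1 gene was past the threshold, ZNF428 with a SAHA minus compound 1 difference of -1.50 (standard error 0.37). The background was 0.583% higher and 0.481% lower over 18514 genes. Between a6 and compound 1 the count was 0, against 0.00656% and 0.0262% over 15251 genes.

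For the 6 genes lowered with SAHA the fold change with a6 was nearer to 0 in value, with wide intervals. The a6 minus SAHA difference was 1.19 for ZNF618 (95% interval 0.21 to 2.17), 0.96 for ZNF768 (0.21 to 1.71) and 0.88 for ZNF428 (0.04 to 1.71). It was 0.65 for ZNF219 (-0.12 to 1.42), 0.62 for ZNF341 (-0.40 to 1.63) and 0.62 for ZNF609 (-0.04 to 1.28). These 6 were picked for a low SAHA value, so their differences lean that way, and none passed adjustment: the smallest adjusted p was 0.525, for ZNF768 (z test on DESeq2 estimates). A p that misses the threshold does not show that the compounds act alike. The test takes the errors of a comparison pair as independent, which is conservative with a shared Ctrl. With an error correlation of 0.5, ZNF768 and ZNF618 passed as higher with a6 than with SAHA, with adjusted p of 0.020 and 0.029 (z test on DESeq2 estimates), against a background of 1.56% higher and 1.98% lower. With that correlation the count between SAHA and compound 1 was 6, ZNF428, ZNF219, ZNF609, ZNF618 and ZNF142 lower and ZNF622 higher with SAHA, against a background of 2.7% lower and 2.64% higher. Between a6 and compound 1 it was 0, against 0.125% higher and 0.164% lower.

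Zinc finger genes with textbook roles are given by their values. Of 25 such genes on a list, 24 were among the 250, and ZNF10 was not. Of these 24, 0 passed with any compound, a count near the background of 4.53% raised and 3.02% lowered with SAHA, and lower shares with the others. Their median was -0.17 with SAHA, 0.09 with compound 1 and -0.10 with a6. ZNF217, a CoREST-associated factor amplified in breast cancer, was at -0.23 with SAHA, 0.21 with compound 1 and -0.05 with a6 in the authors' deposited table. ZNF703, amplified in luminal breast tumours, was at 0.25 with SAHA, 0.30 with compound 1 and 0.70 with a6 in the authors' deposited table. ZNF622, the ribosomal subunit factor, had a computed mean count of 1191 with SAHA, against 791 in Ctrl, and a log2 fold change of 0.59 (adjusted p = 0.219 in DESeq2 as given by the authors' deposited table). ZNF598 was at -0.20 with SAHA, 0.08 with compound 1 and 0.31 with a6 in the authors' deposited table.

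ZNF592, ZNF532 and ZNF687 form a module with the chromatin reader ZMYND8. With SAHA the authors' deposited table gave -0.43 for ZNF592 (adjusted p = 0.445 in DESeq2), -0.85 for ZNF532 (adjusted p = 0.262) and -0.56 for ZNF687 (adjusted p = 0.243). ZNF326, a subunit of the DBIRD complex that links transcription to splicing, was at -1.07 (adjusted p = 0.230 in DESeq2 as given by the authors' deposited table). ZNF644, a partner of the methyltransferases EHMT1 and EHMT2, was at -0.70 with SAHA and -0.81 with a6 in the authors' deposited table. ZNF274, which brings SETDB1 to the 3′ ends of zinc finger genes, was at -0.01 with SAHA, and the promoter activator ZNF143 was at 0.20 in the authors' deposited table.

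A few partners of KRAB proteins were lowered with SAHA, and most did not pass. Of 16 measured genes on the corepressor and heterochromatin list, 3 were lowered and 0 raised in the authors' DESeq2 table, beside 3.02% and 4.53% of all genes, with a median of -0.43. These were CBX5, the HP1 alpha protein, at -1.48 with an adjusted p of 0.0023, SUV39H1, an H3K9 methyltransferase, at -1.24 with 0.0019, and DNMT1, the maintenance DNA methyltransferase, at -0.86 with 0.023 in the authors' deposited table (DESeq2). TRIM28 was at -0.47 (adjusted p = 0.394 in DESeq2 as given by the authors' deposited table), so the corepressor itself did not pass. Of 14 NuRD genes 2 were lowered, CHD3 at -1.26 and CDK2AP1 at -0.90 in the authors' deposited table, with a list median of -0.47. Genes of these lists were abundant, with median counts of 880 and 1306 in the SAHA table, against 147 over all genes. Above the floor 4.08% of genes were lowered, at a median count of 343. Neither background is thus matched to the lists in level. Of the 5 HUSH genes and 5 H3.3 deposition genes 0 passed with SAHA, each list with a median of -0.26. With compound 1 and with a6, 0 genes of these 4 lists passed.

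**Figure D5:**
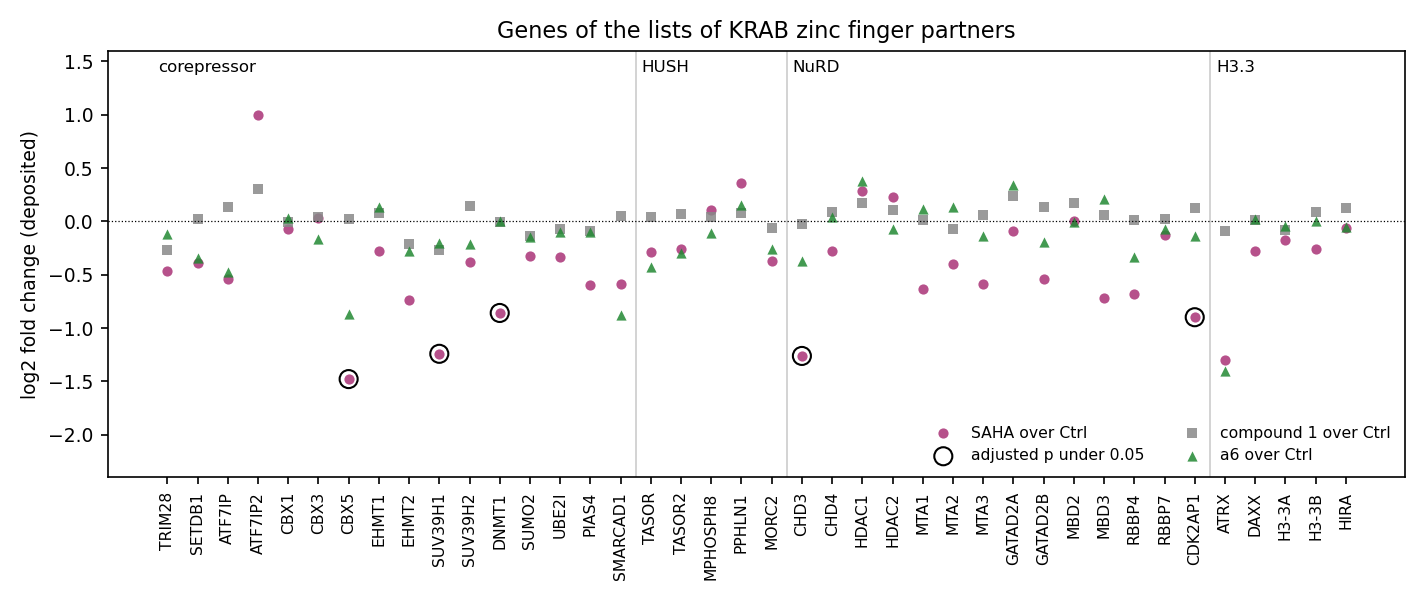
Log2 fold change (vertical axis) of the measured genes on the 4 lists of KRAB partners with SAHA, compound 1 and a6, from the authors' deposited tables, with rings around values of an adjusted p under 0.05. CBX5 at -1.48, CHD3 at -1.26, SUV39H1 at -1.24, CDK2AP1 at -0.90 and DNMT1 at -0.86 with SAHA carry the rings.

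In the authors' own lists of changed genes, which need a 2-fold change and an unadjusted p under 0.05, the zinc finger genes were few. The SAHA lists held 1 of them (ZNF778) among 1327 higher genes, 0.4% of the 250 beside 7.16% of all genes of the table. They held 7 among 609 lower genes, 2.8% of the 250 beside 3.29% of all genes, and 1.15% of that list beside the 1.35% that the 250 make up of the table. The count of lower genes is thus near the background. The a6 lists held ZNF778 among 150 higher genes, 0.4% of the 250 beside 0.983% of all genes, and ZNF675 and ZNF292 among 248 lower genes, 0.8% beside 1.63%, and the compound 1 lists held 0. Of the deposited G4-related lists, that of 440 genes lower with SAHA held 6: ZNF341 with 6 G4s, ZNF618 and ZNF326 with 3 each, ZNF614 with 2, and ZNF219 and ZNF292 with 1 each, as the authors' deposited table numbers them. These 6 are 1.37% of the names on that list, near the 1.35% above. The G4-related list for genes lower with a6 held ZNF292 with 1. It has 326 names, of which 118 are on the list of 248 lower genes, so being on it does not mean being on that list. ZNF428 was on none of them. The sources used here do not give the region searched for G4s.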

How the data were processed

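RNA-seq of 12 MDA-MB-231 libraries was used through 3 comparison tables, 6 lists of changed genes and 6 G4-related lists. Per the submitters' processing notes, cutadapt, DESeq2 and GRCh38 (hg38) were used; aligner, counter, strand setting and versions are unknown here. Each deposited comparison lists, per the file headers, the mean normalized count (a non-negative signal). Further columns, per the file headers, are the log2 fold change and its standard error, the Wald statistic (used as a score), and the raw and adjusted p-value. The deposited G4 lists add how many G4s a gene has. The number of columns of single libraries used was 0.

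The statistic equalled the fold change over its error, and the adjusted p a Benjamini-Hochberg adjustment over each table. Levels were computed from mean count and fold change for equal groups; Ctrl levels of the 250 genes from different tables differed, after an offset, by a standard deviation of 0.00165 to 0.00389 (log2), and the Ctrl libraries were treated as common to the tables. Differences between compounds used a two-sided z test, tested on simulated data. Coordinates, GC, fingers and KRAB A boxes (at least 14 of 37 residues identical to a consensus of 304 genes) came from GENCODE 29, which matched all 250 genes and 96.9% to 98.9% of each table. Promoters came from RefSeq (GRCh38.p14). Python 3.11.15, pandas 2.3.3, scipy 1.17.1, statsmodels 0.14.6 and matplotlib 3.10.9 were used.

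The genes named are those past the threshold and members of the G4-related lists. By mean count they are the 5 highest, the 3 lowest and the first 3 left out. With compound 1 they are the 3 highest and lowest. Of the 25 genes with textbook roles, the extremes of the chromosome 19 clusters and the falling genes of the partner lists, only some are named. Others, such as ZNF559, ZNF324 and DNMT1, were chosen after their values were seen. The members and lists were chosen with earlier results of these data known. Alternatives were an adjusted p under 0.01, a 2-fold limit, adjustment over all genes, centring, removal of a lowess GC trend (share 0.3), the authors' lists, other floors and an error correlation of 0.5.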

Additional observations from a re-analysis of the deposited data

How the results depend on the processing

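Of the summary results, 42 values under other settings kept their reading and 6 moved. For single genes 31 kept it, 9 were weaker and 0 reversed. A median was counted as kept if it moved by less than the median standard error of 1 gene, 0.33 to 0.36. That limit is wider than any of these medians, so their being kept shows little. A count was kept within a ratio of 3 to 2, so the authors' SAHA lists, with 1 raised and 7 lowered, were counted as kept. Counts of 0 that stayed at 0 were also counted as kept. With compound 1, 0 of 27126 genes passed, so stricter limits could not move its count, and the total of kept values shows little. With SAHA, 6 genes were lowered, 3 at an adjusted p under 0.01 and 3 with the GC trend removed. With a6, 0 passed, and 3 were on the authors' lists of changed genes. Between a6 and SAHA 0 passed, and 2 with an error correlation of 0.5. Between SAHA and compound 1, 1 passed, 6 with an error correlation of 0.5 and 0 at an adjusted p under 0.01. Centring and the other settings moved the median of the 250 genes between -0.20 and -0.01 with SAHA, 0.00 and 0.04 with a6 and -0.03 and 0.07 with compound 1. The cause of these shifts was not tested. No paired analysis was possible because no values per library were used here, and leaving out each replicate was not run for the same reason. Depth per library is unknown, and the median standard error of 0.36 with SAHA limits what a fold change of 1 gene can show.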

Other observations

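Of the ZNF-numbered genes outside the 250, SAHA raised ZNF365 and ZNF843. ZNF365, whose product is described at centrosomes, had a computed mean count of 17.4 with SAHA, against 0.192 in Ctrl, and rose by 6.50 (log2, SE 1.41, adjusted p = 0.00024 in DESeq2 as given by the authors' deposited table). ZNF843 had 20.2 with SAHA, against 0.703 in Ctrl, and a log2 fold change of 4.84 (adjusted p = 0.0033 in DESeq2 as given by the authors' deposited table). Neither was in the a6 table, and both Ctrl levels are near 0, so the sizes of these folds are uncertain. The 138 ZNF-numbered genes of all 3 tables that were not among the 250 had medians (log2 fold change) of 0.18 with SAHA, 0.15 with compound 1 and 0.09 with a6. Of other zinc finger families, taking symbols that end in a number, 33 ZBTB genes had a median of -0.28 with SAHA, 22 ZSCAN and ZKSCAN genes 0.17 and 15 ZFP genes 0.06. In each, 0 passed the authors' DESeq2 test, beside 4.53% raised and 3.02% lowered of all genes.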
